A study of Mus musculus with 6 samples.

Results

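Voltage-gated sodium and calcium channel genes were followed across normal and OIR mouse retina. They were taken as the protein-coding genes whose symbols name a sodium channel alpha or beta subunit (Scn genes ending in a or b) or a calcium channel alpha1, alpha2delta, beta or gamma subunit (Cacna1, Cacna2d, Cacnb and Cacng genes). This gave 40 of the 54532 genes in the deposited count table, 14 sodium and 26 calcium channel genes. The RNA came from retina at postnatal day 17. All mice were wild type on the C57BL/6J strain, and 3 libraries were made from normal and 3 from OIR animals. OIR is the usual abbreviation of oxygen-induced retinopathy, in which pups spend a period in high oxygen and the retina becomes hypoxic after their return to room air. The labels give no oxygen schedule. The labels do not say whether each library came from a separate animal or whether retinas were pooled. The p-values therefore speak only of the spread from library to library, part of which may be technical. Levels are CPM, counts scaled to a common library size, after TMM scaling, and a mean stands with its SD (3 libraries a group). A gene is called where the quasi-likelihood test of edgeR, adjusted over all 17108 genes tested, gives a p under 0.05.

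Sodium channel alpha subunits open on depolarization and carry the upstroke of the action potential, which in the retina is fired mainly by ganglion cells and by some amacrine and bipolar cells. Their beta subunits are single-pass membrane proteins that set gating and surface density. Calcium channel alpha1 subunits form the pore through which calcium enters, photoreceptors and bipolar cells use them to release glutamate continuously at ribbon synapses, and alpha2delta and beta subunits bring the pore to the membrane. Most gamma subunits are better known as partners of AMPA-type glutamate receptors than of calcium channels.

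The libraries held 15818168 to 17163513 counts, and the channel genes took 0.296% to 0.315% of them in normal retina and 0.259% to 0.274% in OIR retina. The summed markers of rods, the most abundant retinal cells, stood at 44870 to 47990 CPM in normal and 36370 to 40570 CPM in OIR libraries so these defining markers of retina were abundant in all 6. The sexes were unevenly spread by Xist and Y-linked counts, with 2 male libraries among the normal and 1 among the OIR libraries. Each group thus held RNA of more than 1 animal.

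Of the 40 channel genes, 37 had enough counts to be tested. Over all genes tested, 8.73% were called lower and 11.1% higher in OIR retina, or 19.8% in either direction. Among the 37 channel genes 15 fell (40.5%) and 1 rose (2.7%), and the other 21 did not pass. Their median log2 change was −0.25, against 0.01 over all genes tested, and 32 of the 37 values were below 0. In 24 of the 37 (64.9%) the normal and OIR libraries did not overlap, against 36.8% of all genes tested. The falls were mostly small. Among the 15 the median size was 0.42 on the log2 scale, as it was over all 1493 genes called lower, and only Scn11a and Scn4b fell at least 2-fold. No group had more than 2 libraries of a sex, so the call was not tested within a sex. The count of falls varied with the library left out, as did that over all genes. It was 16, 17 and 8 without Normal 1, 2 and 3, and 12, 12 and 15 without OIR 1, 2 and 3. With sex as a covariate it was 12. Over all genes, of which 17108 to 17622 were tested, 1493 fell in the main fit. The all-gene falls were 1515, 1734 and 769 without Normal 1, 2 and 3. They were 761, 860 and 1255 without OIR 1, 2 and 3, and 1049 with sex as a covariate. The single rise, that of Scn4a, passed in each alternative, and without Normal 1 a second gene, Cacna1s, rose as well.

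**Figure D1:**
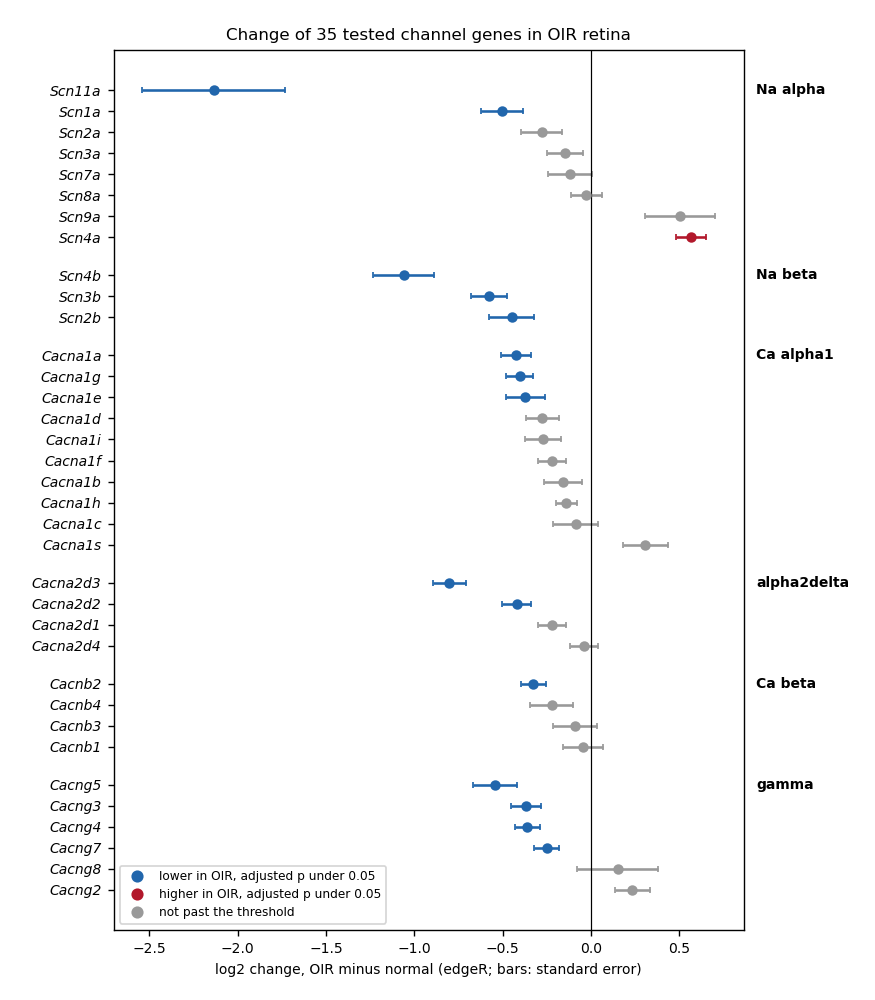
Log2 change (OIR minus normal, edgeR) of 35 of the 37 tested channel genes, grouped by subunit class, with bars for the standard error. Blue points mark the 15 genes called lower, the red point the 1 called higher and grey points the 19 shown that did not pass; most points lie left of 0, with Scn11a farthest out.

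**Figure D2:**
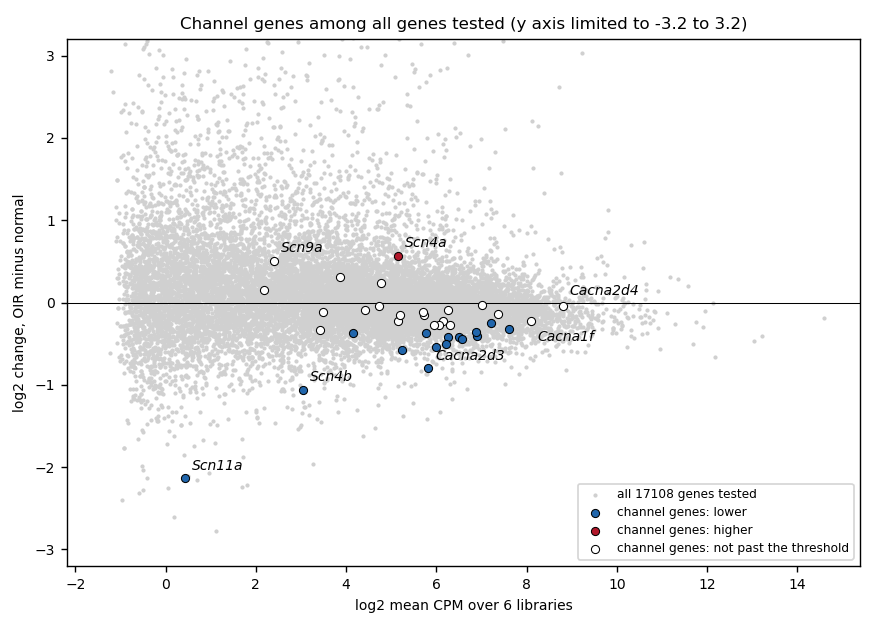
Log2 change (OIR minus normal) against log2 mean CPM over the 6 libraries for all 17108 genes tested (grey) and the 37 channel genes (blue lower, red higher, white not past the threshold); 69 genes lie outside the vertical range shown. Most channel genes sit at moderate to high level just below 0, whereas Scn11a sits at low level with the largest fall.

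Bulk RNA cannot tell fewer cells of a type from less RNA per cell, which touches each result that follows. Markers of retinal neurons were therefore measured beside the channels. The shares to set beside their counts are 8.73% lower and 11.1% higher over all genes tested. In the edgeR test 7 of 10 amacrine, 7 of 10 bipolar, 3 of 5 horizontal, 4 of 8 rod and 2 of 8 cone markers fell, and none of these rose. At an unadjusted p under 0.05 none of them rose either, nor in DESeq2 or limma-voom. Their median log2 changes were −0.37, −0.42, −0.43, −0.28 and −0.25. Summed bipolar markers stood at 1916 to 2021 CPM in normal and 1352 to 1473 CPM in OIR libraries, and summed amacrine markers at 1624 to 1873 and 1306 to 1429 CPM. Of 11 ganglion cell markers only Nefh, a heavy neurofilament gene, fell in edgeR (log2 change −0.60). These 11 markers held 4 lower at an unadjusted p under 0.05, 3 lower in DESeq2 and 1 lower in limma-voom. Their sum was 1905, 1204 and 1598 CPM in Normal 1, 2 and 3 and 1200, 1261 and 1337 CPM in OIR 1, 2 and 3, so Normal 2 lay at the OIR level. Of the pigment epithelium markers 4 of 6 fell, and of the Muller glia markers 4 of 8 fell and 1 rose. Endothelial and mural markers moved the opposite way, with 8 of 10 higher in both lists, as did 6 of 10 microglia markers. The part of any of these cell types in the channel results was not tested.

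The genes that moved farthest in each direction were Cacna2d3, Scn4b and Scn11a among the falls and Scn4a among the rises. Their 250 bases before the RefSeq start (GRCm38.p6, 5′ to 3′ on the gene's strand) are shown for that reason. The RefSeq starts of Scn4a and Scn4b lie inside the spans of the deposited genes. Both strands were searched for ACGTG and GCGTG, the core letters of the hypoxia response element, and matches are in capitals. Promoters were at hand for 30 of the 40 genes.
Cacna2d3, chr14:29721865-29722114, minus strand: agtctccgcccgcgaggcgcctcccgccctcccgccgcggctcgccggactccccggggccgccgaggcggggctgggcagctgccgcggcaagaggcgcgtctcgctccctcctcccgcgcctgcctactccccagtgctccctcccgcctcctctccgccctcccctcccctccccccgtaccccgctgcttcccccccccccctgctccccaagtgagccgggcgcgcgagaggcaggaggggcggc
Scn4b, chr9:45138374-45138623, plus strand: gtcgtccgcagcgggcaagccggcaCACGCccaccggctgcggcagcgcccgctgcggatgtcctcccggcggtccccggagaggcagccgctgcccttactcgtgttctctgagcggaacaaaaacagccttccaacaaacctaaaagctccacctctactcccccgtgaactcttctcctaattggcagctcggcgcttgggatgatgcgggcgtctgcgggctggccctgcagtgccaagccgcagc
Scn11a, chr9:119825457-119825706, minus strand: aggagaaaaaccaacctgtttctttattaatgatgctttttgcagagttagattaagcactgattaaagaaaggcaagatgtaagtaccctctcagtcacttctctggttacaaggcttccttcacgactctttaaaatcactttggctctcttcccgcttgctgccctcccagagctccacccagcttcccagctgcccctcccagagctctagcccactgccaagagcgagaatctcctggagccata
Scn4a, chr11:106349391-106349640, minus strand: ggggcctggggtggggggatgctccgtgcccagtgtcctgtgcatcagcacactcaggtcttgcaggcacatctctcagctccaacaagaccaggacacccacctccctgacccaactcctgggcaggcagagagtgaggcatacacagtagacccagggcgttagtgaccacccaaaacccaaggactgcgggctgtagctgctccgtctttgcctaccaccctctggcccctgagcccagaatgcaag
The Cacna2d3 and Scn4b stretches hold 30 and 23 CpG dinucleotides and those of Scn11a and Scn4a 3 and 4, against a median of 6 over the 32851 RefSeq promoters. The one match reads CACGC as shown, which is GCGTG on the reverse strand. It begins 225 bases before the Scn4b start in RefSeq, which places it inside the deposited gene. A match occurred in 4 of 14 promoters, of 12 of the 16 called genes (28.6%), in 13 of 27 promoters of the other channel genes (48.1%) and in 38.6% of all promoters. A match is a description of letters and not a bound site.

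Among the sodium channel alpha subunits, 2 of 9 tested fell (22.2%) and 1 rose (11.1%), with a median log2 change of −0.15. Over all genes tested 8.73% fell and 11.1% rose, so the share that rose was the same. The neuronal subunit Scn1a and the sensory-neuron subunit Scn11a fell, and the skeletal muscle subunit Scn4a rose. The subunit with the highest level per length, Scn8a, did not pass.

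Scn11a encodes a persistent-current channel (Nav1.9) known from pain-sensing neurons of the dorsal root ganglia, and it lies on chromosome 9, 119753759 to 119825456, minus strand (mm10, as are all gene positions here). It had 2.58, 1.399 and 2.57 CPM in Normal 1, 2 and 3 and 0.413, 0.354 and 0.705 CPM in OIR 1, 2 and 3. The OIR values rest on 6 to 12 counts per library, and Scn11a passed the count filter through its 43, 23 and 40 counts in the normal libraries. That its groups did not overlap is therefore no separate support for the fall of Scn11a. Its log2 change was −2.13 with a standard error of 0.40 (adjusted p = 0.0041), a 4.39-fold lower level. Scn10a, another sensory-neuron subunit, could not be tested with 3 counts in normal and 1 in OIR retina.

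Scn1a encodes Nav1.1, known from fast-spiking neurons, and lies on chromosome 2, 66270778 to 66440840, minus strand. It had 89.9, 71.3 and 101.5 CPM in the normal and 59.9, 66.1 and 59.1 CPM in the OIR libraries. Every OIR library lay below every normal library, with Normal 2 the nearest to them. Scn1a fell by 0.50 on the log2 scale (standard error 0.12, adjusted p = 0.012), and the call was lost without Normal 3 (−0.39, adjusted p = 0.062). Scn1a stands in a 1327.8 kb cluster with Scn3a, Scn2a, Scn9a and Scn7a. None of those 4 neighbours passed. Scn2a, the channel of early axon segments, had a log2 change of −0.28 (adjusted p = 0.125), which passed without Normal 2 (−0.39) and with no filter on low counts (−0.28). Scn3a, strongest in the immature brain, had one of −0.15, the sodium-sensing Scn7a one of −0.12 and the sensory-neuron gene Scn9a one of 0.50 (adjusted p = 0.106) at 4.34 ± 0.76 and 6.17 ± 0.92 CPM. Exons of Scn9a share 180 bases with the antisense gene Gm13629, and these reads cannot be told apart without strand.

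Scn4a, the sodium channel of skeletal muscle (Nav1.4), lies on chromosome 11, 106318592 to 106353288, minus strand. It had 30.5, 27.3 and 27.8 CPM in the normal and 40.3, 44.7 and 41.6 CPM in the OIR libraries, on 432 to 758 counts each. The libraries of a group lay close together and the groups did not overlap. The level rose by 0.57 on the log2 scale with a standard error of 0.08, or 1.48-fold (adjusted p = 0.00101), and the log2 change was 0.51 to 0.62 over the alternatives. The summed skeletal muscle markers overlapped between the groups, at 10.01 to 13.9 CPM in normal and 9.55 to 13.4 CPM in OIR libraries. None of the 5 tested of 10 passed in edgeR, DESeq2 or limma-voom (1 was higher and 1 lower at an unadjusted p under 0.05). The muscle creatine kinase gene Ckm had 1.25 ± 0.19 and 2.16 ± 0.42 CPM (adjusted p = 0.0924), the giant sarcomere gene Ttn, at the highest mean level of the list, 4.65 ± 1.7 and 2.71 ± 0.56 CPM (adjusted p = 0.109), and the myosin gene Myh4 had 0 counts in each library. The part of muscle RNA in the Scn4a result was not tested.

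Scn8a, the main channel of mature axon initial segments and nodes (Nav1.6), had 124.7, 120.9 and 142.1 CPM in the normal and 133.5, 133.6 and 114.0 CPM in the OIR libraries. The groups overlapped in part, with Normal 3 above and OIR 3 below all libraries of the other group. Its log2 change was −0.02 with a standard error of 0.09 (adjusted p = 0.879), and it was 0.02 with library totals alone, 0.02 with sex as a covariate, 0.05 without Normal 3 and 0.03 without OIR 3.

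Of the 4 sodium channel beta subunits 3 fell and none rose, also at an unadjusted p under 0.05 and in DESeq2 and limma-voom, with a median log2 change of −0.51. The share that fell was 75%, against 8.73% over all genes tested. The fall was largest in Scn4b, whose product blocks the open pore and supports resurgent current. Scn4b had 12.5, 9.79 and 11.4 CPM in the normal and 4.60, 6.49 and 5.05 CPM in the OIR libraries. The lowest normal library stood well above the highest OIR library. The level fell by 1.06 on the log2 scale (standard error 0.17, adjusted p = 0.0017), a 2.08-fold lower level. Scn2b, which bonds covalently to the alpha subunit, is its neighbour on chromosome 9 within 36.4 kb. It had 130, 86.3 and 112.1 CPM in the normal and 75.9, 79.7 and 85.1 CPM in the OIR libraries, so Normal 2 lay just above OIR 3. Its fall of 0.45 on the log2 scale (adjusted p = 0.0307) did not pass without Normal 1 (−0.31), Normal 3 (−0.43), OIR 1 (−0.41) or OIR 2 (−0.45), nor with sex as a covariate (−0.35).

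Scn3b, a noncovalent beta subunit, had 48.7, 38.5 and 49.4 CPM in the normal and 29.9, 31.0 and 30.7 CPM in the OIR libraries. The OIR libraries were nearly equal and all lay below Normal 2, the lowest normal library. Scn3b fell by 0.58 on the log2 scale (standard error 0.10, adjusted p = 0.00263) and the call held in all alternatives run. In Normal 2, Scn2b and Scn3b were at their lowest normal values, as were Scn4b, Scn1a and the summed ganglion cell, amacrine and pigment epithelium markers. Normal 2 was also the only female library of the normal group by Xist and Y-linked counts. The parts of sex and of these cells in this spread were not tested.

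**Figure D3:**
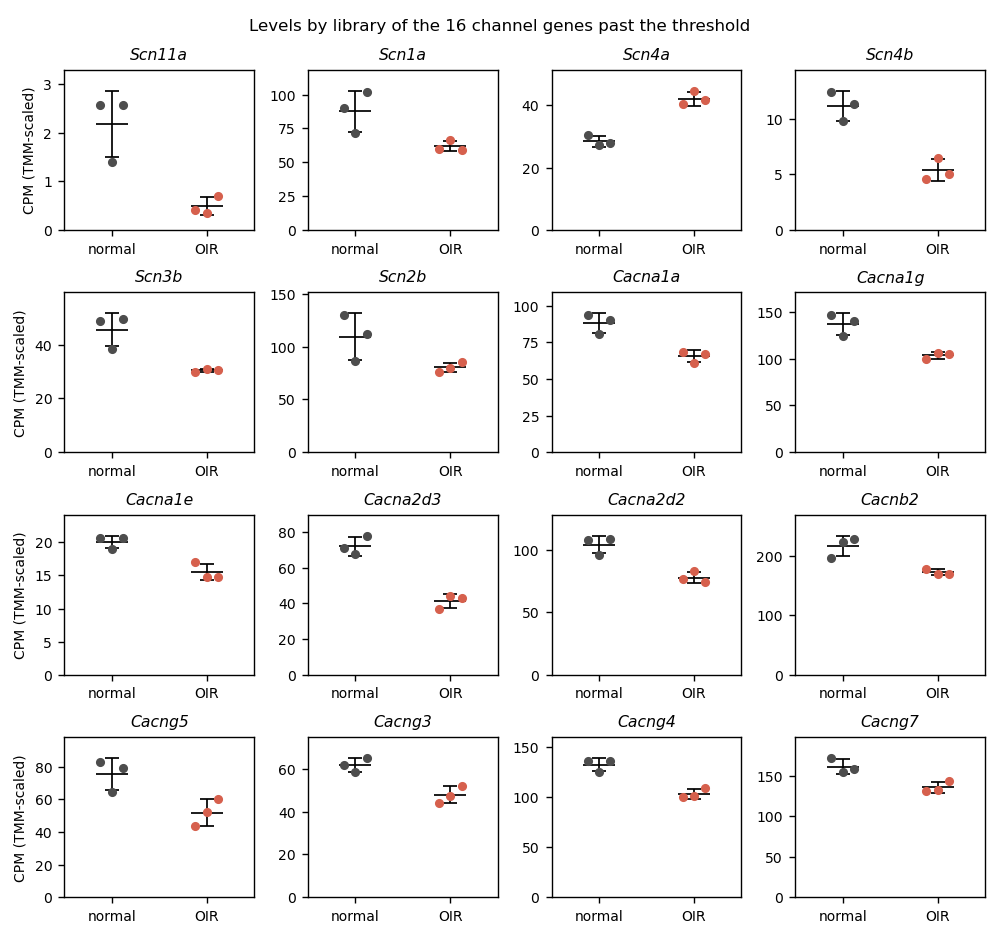
CPM (TMM-scaled) by library of the 16 channel genes past the threshold, with 1 point per library, a horizontal line for the mean and bars for the SD (n = 3 per group); axes start at 0. In each panel the normal (grey) and OIR (red) points do not overlap, and Scn4a is the panel where OIR is higher. The genes were chosen by the test on these same libraries, so the lack of overlap is no separate support.

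Of the 10 calcium channel alpha1 genes, all tested, 3 fell and none rose, with a median log2 change of −0.25. The share that fell was 30%, against 8.73% over all genes tested. The falls were in the P/Q-type Cacna1a, the T-type Cacna1g and the R-type Cacna1e. At an unadjusted p under 0.05, 7 were lower and 1, Cacna1s, was higher, and none rose in DESeq2 or limma-voom. The photoreceptor channel Cacna1f did not pass.

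Cacna1a encodes Cav2.1, which triggers transmitter release at conventional synapses (chromosome 8, 84388440 to 84640246, plus strand). It had 93.5, 80.5 and 90.1 CPM in the normal and 68.3, 61.2 and 67.3 CPM in the OIR libraries. The groups were well apart. The level fell by 0.42 on the log2 scale (standard error 0.08, adjusted p = 0.00507), a decrease that held in all alternatives run. Its exons share 435 bases with the antisense gene Gm16183, which had 34 counts over the 6 libraries.

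Cacna1g encodes Cav3.1, which opens at small depolarizations and shapes burst firing (chromosome 11, 94408391 to 94474198, minus strand). It had 146.0, 124.0 and 140.5 CPM in the normal and 99.7, 106.4 and 104.4 CPM in the OIR libraries. The OIR libraries were again the closer together and all lower. Cacna1g fell by 0.40 on the log2 scale (standard error 0.08, adjusted p = 0.00447), also in all alternatives run. The other T-type genes Cacna1h and Cacna1i had log2 changes of −0.14 and −0.27 (adjusted p = 0.138 and 0.0904), and Cacna1i passed without Normal 2 (−0.39) and with no filter (−0.28). Whether the T-type genes differ from each other was not tested.

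Cacna1e, the R-type gene, was low at 20.6, 19.0 and 20.6 CPM in the normal and 16.97, 14.8 and 14.75 CPM in the OIR libraries. The groups did not overlap. Its fall of 0.37 on the log2 scale was close to the threshold (adjusted p = 0.0401) and was lost in 7 of 14 alternatives, among them those without Normal 1 (−0.35), Normal 3 (−0.35), OIR 2 (−0.35) or OIR 3 (−0.35) and with the replicate number as a block (−0.37, adjusted p = 0.0793).

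Cacna1f encodes Cav1.4, the channel of photoreceptor ribbon synapses whose loss causes night blindness, and had the highest level per length of the class. It had 262.7, 322.8 and 294.7 CPM in the normal and 246.5, 261.2 and 248.0 CPM in the OIR libraries. The groups did not overlap, but Normal 1 lay within 2 CPM of OIR 2. Its log2 change was −0.22 with a standard error of 0.08 (adjusted p = 0.0788). It passed without Normal 1 (−0.29) and with no filter on low counts (−0.22), and was −0.09 within male and −0.38 within female libraries. These within-sex values rest on 1 male OIR library and 1 female normal library, and a difference between the sexes was not tested. The split is not particular to Cacna1f. Scn2b had −0.60 within male and −0.10 within female libraries, and Cacnb3 had −0.24 and 0.25.

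Cacna1d, the low-threshold L-type gene of hair cells and some neurons, had a log2 change of −0.27 (adjusted p = 0.0594). It passed in DESeq2 (−0.28), with no filter (−0.28) and without Normal 1 (−0.32), and its exons share 589 bases with Chdh on the opposite strand. The N-type Cacna1b had a log2 change of −0.16. The cardiovascular L-type gene Cacna1c, which smooth muscle and mural cells also use, had one of −0.09 at 22.2 ± 3.4 and 20.9 ± 1.8 CPM, and one of 0.04 without Normal 3. Summed mural markers over the same libraries were 262 to 299.8 CPM in normal and 676 to 768 CPM in OIR retina.

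Cacna1s, the voltage sensor of skeletal muscle (Cav1.1), was the alpha1 gene with a positive value. It had 14.6, 12.4 and 11.9 CPM in the normal and 16.1, 16.9 and 15.2 CPM in the OIR libraries. The groups did not overlap, but the log2 change of 0.31 (standard error 0.12, adjusted p = 0.112) passed only without Normal 1 (0.40, adjusted p = 0.0453). Its exons share 1309 bases with the antisense gene Gm37759, which had 122 counts over the 6 libraries, so part of these reads may belong to either gene.

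Both alpha2delta falls were in genes other than the photoreceptor subunit. All 4 alpha2delta genes were tested, 2 fell, and none rose, also at an unadjusted p under 0.05 and in DESeq2 and limma-voom. Their median log2 change was −0.32, and 50% of them fell, against 8.73% of all genes tested. Cacna2d3 (chromosome 14, 28904943 to 29721864, minus strand), an alpha2delta gene known from hearing and pain, had 70.8, 67.5 and 77.8 CPM in the normal and 36.8, 44.2 and 43.0 CPM in the OIR libraries. No OIR library came near a normal one. The level fell by 0.80 on the log2 scale (standard error 0.09), or 1.74-fold, and its adjusted p of 0.000189 was the smallest of the 37 genes. The log2 change was −0.86 to −0.73 over the alternatives, all of which passed.

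Cacna2d2 (chromosome 9, 107399612 to 107529343, plus strand), known from cerebellar Purkinje cells, had 108.4, 96.2 and 108.6 CPM in the normal and 76.4, 83.0 and 74.5 CPM in the OIR libraries. The groups were again apart. It fell by 0.42 on the log2 scale (standard error 0.08, adjusted p = 0.004) and the call held in all alternatives run.

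Cacna2d4, the alpha2delta subunit of photoreceptor terminals, had the highest CPM of all 40 genes, at 421, 489 and 443 CPM in the normal and 445, 461 and 412 CPM in the OIR libraries. The groups overlapped. Its log2 change was −0.04 with a standard error of 0.08 (adjusted p = 0.775), and it turned to 0.004 with library totals alone and to 0.02 without Normal 2. Rod markers over the same libraries fell in 4 of 8 cases, and their part in this value was not tested. Cacna2d1, the gabapentin-binding subunit and a thrombospondin receptor, had a log2 change of −0.22 (adjusted p = 0.0794), which passed without Normal 1 (−0.29).

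Of the 4 calcium channel beta genes 1 fell (25%, against 8.73% over all genes tested) and none rose, with a median log2 change of −0.16. None rose at an unadjusted p under 0.05 or in DESeq2 or limma-voom. Cacnb2, the beta subunit of photoreceptor ribbon synapses, had 196.1, 223.1 and 228.3 CPM in the normal and 177.7, 169.2 and 169.4 CPM in the OIR libraries. Normal 1 was the nearest to the OIR libraries and still above them. Cacnb2 fell by 0.33 on the log2 scale (standard error 0.07, adjusted p = 0.00902), and the adjusted p was 0.0505 without Normal 3 (−0.29). Cacnb3 had 93.2, 62.2 and 79.6 CPM in the normal and 73.0, 73.0 and 74.8 CPM in the OIR libraries. The OIR values fell inside the normal spread, and its log2 change of −0.09 was 0.001 with sex as a covariate and 0.05 without Normal 1. Cacnb4 had a log2 change of −0.22 (adjusted p = 0.243), which passed without Normal 1 (−0.35), and Cacnb1 one of −0.04.

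Of the 6 gamma genes tested, 4 fell (66.7%, against 8.73% over all genes tested) and none rose. Their median log2 change was −0.30, and none rose in DESeq2 or limma-voom. At an unadjusted p under 0.05, 1 gene, Cacng2, was higher. The falls were in Cacng3, Cacng4, Cacng5 and Cacng7, all of which encode proteins that travel with AMPA receptors. Without Normal 3 only Cacng4 of them passed.

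Cacng5 had 82.7, 64.6 and 79.2 CPM in the normal and 43.6, 52.0 and 60.1 CPM in the OIR libraries. OIR 3 and Normal 2 stood nearest each other. Cacng5 fell by 0.54 on the log2 scale (standard error 0.13, adjusted p = 0.0118) and did not pass without Normal 3 (−0.51). Cacng4, its neighbour in a 211.8 kb stretch of chromosome 11, had 136.2, 125.5 and 136.8 CPM in the normal and 100.2, 101.4 and 109.0 CPM in the OIR libraries. The groups were apart, and the fall of 0.36 on the log2 scale (adjusted p = 0.005) passed in all alternatives run. The third gene of that stretch, the muscle-type Cacng1, could not be tested with 4 counts in normal and 1 in OIR retina.

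Cacng3 had 61.7, 58.3 and 64.8 CPM in the normal and 44.1, 47.1 and 52.0 CPM in the OIR libraries. Its groups did not overlap, and its fall of 0.37 on the log2 scale (adjusted p = 0.0115) did not pass without Normal 3 (−0.33) or OIR 1 (−0.32). Cacng7, with the highest level per length of the class, had 171.7, 154.2 and 158.7 CPM in the normal and 131.6, 132.2 and 143.7 CPM in the OIR libraries. The fall of 0.25 on the log2 scale was the smallest called (adjusted p = 0.03). It did not pass without Normal 1 (−0.21), Normal 3 (−0.26), OIR 1 (−0.23) or OIR 2 (−0.24), with the replicate block (−0.25, adjusted p = 0.0564) or with sex as a covariate (−0.24).

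Cacng2, known as stargazin, the AMPA receptor partner lost in the stargazer mouse, had 24.4, 27.9 and 23.3 CPM in the normal and 29.6, 31.0 and 28.3 CPM in the OIR libraries. The values of OIR 3 and Normal 2 were nearly equal. Its log2 change was 0.23 (adjusted p = 0.128), and its exons share 323 bases with an antisense gene, A730060N03Rik, of 147 counts. Cacng8 had a log2 change of 0.15, and of −0.05 without Normal 3. Cacng6, beside Cacng7 and Cacng8 on chromosome 7, had 0 counts in each library, which allows up to 0.03 CPM over the 6 libraries for counting error only (3 counts of their total).

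Levels of different genes were compared per kilobase of the deposited gene length. Within the alpha2delta class Cacna2d4 held 63.3% ± 2.6 of the summed level in normal and 70.1% ± 1.1 in OIR retina (SD, n = 3), with 61.7% to 66.4% in the normal and 69.0% to 71.1% in the OIR libraries. Within the alpha1 class Cacna1f held 33.9% ± 3.6 and 34.2% ± 0.34, and Cacna1h and Cacna1g followed with 18.6% and 14.2% in normal retina. In OIR retina Cacna1h held 19.9% ± 0.45 and Cacna1g 12.6% ± 0.28. Cacna1s, with a small share, went from 2.1% ± 0.28 to 3.0% ± 0.12. The summed alpha1 level was 95.3 ± 3.0 CPM per kilobase in normal and 81.0 ± 1.8 in OIR retina.

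Among the sodium channel alpha genes the shares of Scn1a and Scn4a moved farther, in percent of the class level, than any alpha1 share. Scn8a and Scn1a led in normal retina with 25.6% ± 0.79 and 24.4% ± 2.0, a gap within their spread, and had 27.0% ± 1.6 and 18.6% ± 0.62 in OIR retina. Scn4a went from 12.7% ± 1.4 to 20.1% ± 0.83, with 11.1% to 13.7% in the normal and 19.1% to 20.6% in the OIR libraries. The summed alpha level was 32.1 ± 3.4 and 29.8 ± 1.1 CPM per kilobase, with groups that overlapped. These shares are descriptions with no test, and a share can rise because another gene fell. The order depends on the length used. With coding length Cacnb2 led the calcium beta genes in normal retina with 52.6% against 28.0% for Cacnb3, in place of 35.7% and 42.2%. Scn4a held 8.2% in normal retina in place of 12.7%. Scn8a and Scn1a held 33.25% and 22.57% in normal retina, in place of 25.6% and 24.4%, so their near-equal shares depend on the length used. No share by coding length is given for OIR retina.

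**Figure D4:**
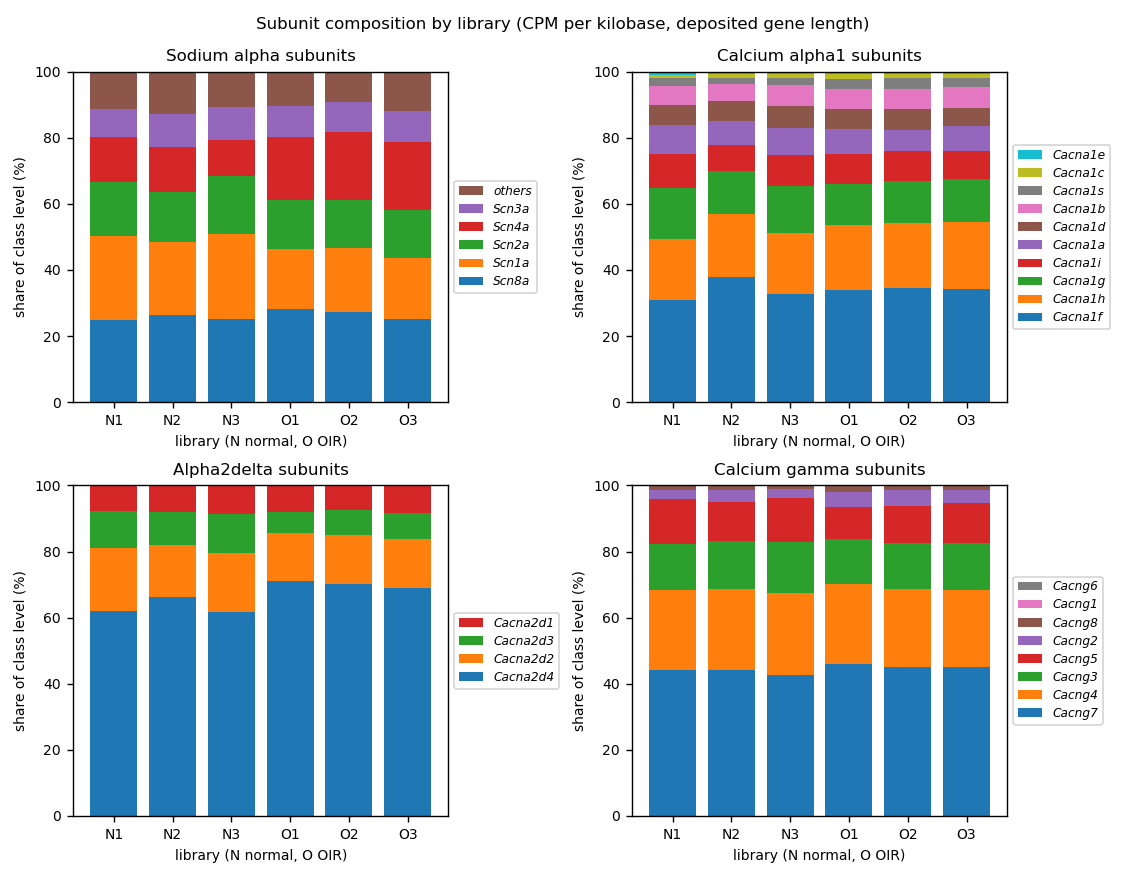
Share of each gene in the summed level of its subunit class, for 4 of the 6 classes (CPM per kilobase of deposited gene length, in percent) for each of the 3 normal (N) and 3 OIR (O) libraries. The sodium alpha panel names the 5 genes with the largest normal shares and sums the others. Scn4a takes a wider band in the OIR libraries of the sodium alpha panel, and Cacna2d4 takes most of the alpha2delta level in all 6.

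Partners of the channels were read from fixed lists. Of 15 sodium channel partners 6 fell (40%) and 2 rose (13.3%), with a median log2 change of −0.26. Over all genes tested the shares were 8.73% and 11.1%. Fgf13, an intracellular factor that binds the sodium channel tail, went from 64.6 ± 6.3 to 36.3 ± 2.0 CPM (SD, n = 3), a log2 change of −0.83 (adjusted p = 0.000121 in edgeR). Its relative Fgf11 rose by 0.75, from 61.1 ± 5.1 to 103.0 ± 7.0 CPM (adjusted p = 0.000174). Of the other genes of that family, Fgf14 fell too (log2 change −0.43, adjusted p = 0.0131) and Fgf12 did not pass (−0.29). S100a10, which carries Scn10a protein to the membrane in sensory neurons, rose 1.98-fold from 17.9 ± 4.2 to 35.4 ± 5.3 CPM, and Cntn1, an axonal adhesion gene, fell by 0.39. The scaffold gene Ank3, which anchors sodium channels at the initial segment, was not among the 4 smallest adjusted p and fell by 0.26.

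Of 25 calcium channel partners 7 fell (28%) and 4 rose (16%), with a median log2 change of −0.17. Over all genes tested the shares were 8.73% and 11.1%. The active-zone gene Bsn, which holds ribbons near calcium channels, went from 229 ± 25.1 to 164.6 ± 5.2 CPM (SD, n = 3), a log2 change of −0.48 (adjusted p = 0.00238 in edgeR). The calcium-binding gene Cabp1 fell by 0.46. Thbs1, a thrombospondin and so of the family of alpha2delta ligands, rose 2.49-fold from 25.2 ± 1.9 to 63.0 ± 18.3 CPM (adjusted p = 0.000508). Cabp4, the partner of Cacna1f in photoreceptors, did not pass (log2 change −0.12, adjusted p = 0.388).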

How the data were processed

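The 6 retina libraries were prepared from TRIzol-extracted total RNA with a NEBNext Ultra kit, per the labels' protocols; in its standard form this kit keeps no strand information. The authors deposited raw counts per gene with a gene length, which equals the GENCODE vM21 exon union for all 40 channel genes and was used for levels per kilobase. The submitters' processing notes name CASAVA 1.8, HISAT2 2.0.5, featureCounts 1.5.0-p3, DESeq2 1.20.0, fastp and the build mm10. Annotation release, strand setting and read filters were not given in these sources.

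Columns were matched to samples by the day, number and OIR in their names. No 2 libraries of a group agreed within sampling noise (chi-square over degrees of freedom 7.20 to 23.1). Genes were tested in edgeR 4.0.16 under R 4.3.3 by its quasi-likelihood test, with TMM scaling, filterByExpr (minimum count 10, total 15), all 6 libraries, no covariate and Benjamini-Hochberg adjustment. A standard error is the log2 change over the square root of F. Within-sex values use log2(CPM + 0.5). Alternatives were DESeq2 1.42.0, limma-voom (limma 3.58.1), other scalings and filters, a threshold of 0.01, the replicate number as a block, sex as a covariate, coding length and leaving out each library. The fits were checked on simulated counts.

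The channel genes and lists were chosen with earlier results of these data known. The results of 2 channel genes and 1 partner gene are not reported here, though they enter the counts and sums. The other 38 channel genes are named, with values per library for those that passed and, where named, for the highest level per length in each class. From each partner list up to 4 passing genes with the smallest adjusted p are named. Ank3, Cabp4, Fgf12, Fgf14, Ckm and Myh4 were chosen after their values were seen.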

Additional observations from a re-analysis of the deposited data

How the results depend on the processing

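Over 14 alternative fits the 35 tested channel genes named here gave 490 log2 changes, of which 442 kept their direction and their side of the threshold, 23 lost a call, 12 gained one and 13 changed sign. The sign changes were all in genes that had not passed: with library totals alone in Cacna2d4 (0.0040), Cacnb1 (0.0019) and Scn8a (0.020), with sex as a covariate in Cacnb1 (0.039), Cacnb3 (0.0013) and Scn8a (0.018), and with a library left out in Cacna2d4 (−0.087 to 0.020), Cacna1c (−0.18 to 0.036), Cacnb1 (−0.14 to 0.044), Cacnb3 (−0.23 to 0.053), Cacng8 (−0.046 to 0.28) and Scn8a (−0.073 to 0.047). Of the 16 called genes 9 passed in every alternative fit, namely Cacna2d2, Cacna2d3, Cacna1a, Cacna1g, Cacng4, Scn11a, Scn4a, Scn3b and Scn4b. The count of falls, 15, was 8 to 17 with a library left out, the lowest without Normal 3, 9 at an adjusted p under 0.01 and 19 with no filter on low counts. The count of rises, 1, was 1 to 2, with 2 without Normal 1. With the replicate number as a block 13 genes fell and 1 rose, and Cacna1e and Cacng7 were the calls lost; same-numbered libraries had correlations of deviations of 0.061, −0.164 and 0.074, so the numbers were not taken to pair them. Over all genes, 1493 fell and 1901 rose, against 769 and 1237 without Normal 3, 761 and 1328 without OIR 1, and 860 and 1360 without OIR 2. DESeq2 called 10 sodium channel partners and 3 ganglion cell markers lower, against 6 and 1 in both edgeR and limma-voom. Over all 17108 genes tested DESeq2 called 1608 lower, against 1493 in both edgeR and limma-voom. The cause of these shifts was not tested. Library totals alone moved the median of all genes from 0.01 to 0.06 on the log2 scale and left 14 falls. Depth limits Scn11a most, with 6 to 43 counts per library, whereas 33 of the 37 genes had at least 100 counts in every library.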
